A study of Homo sapiens with 4 samples.

Results

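MYC, the AP-1 subunits and the immediate-early factors were examined as 10 genes, MYC, JUN, JUNB, JUND, FOS, FOSL1, FOSL2, EGR1, CCN1 and CCN2, in DU145 cells after knockdown of DCUN1D1. Every probe set whose platform annotation names exactly 1 gene, that gene being one of the 10, was taken, which gave 22 of the 40914 probe sets that name 1 gene, for 10 of 19774 genes. DU145 is an established androgen-independent human prostate carcinoma cell line. The tested cells carried a lentiviral shRNA against DCUN1D1 (shDCUN1D1) and the control cells one against GFP (shGFP), with 2 arrays per group described in the records as biological duplicates. Both groups were thus transduced, and the labels give 16 h in DMEM before total RNA was taken. The study's methods describe instead a change of medium after infection and a longer culture before RNA was collected. Which course applies to these arrays is not settled by the sources. The labels do not say whether a line was 1 clone. The study's methods speak of different shRNAs against DCUN1D1, and the labels do not tell which one each array carried, so the 2 shDCUN1D1 arrays may differ in their shRNA as well as in their culture. All values below are log2 signal, differences are shDCUN1D1 minus shGFP, and the arrays carry no read depth, so that the small number of arrays sets the precision.

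MYC is a basic helix-loop-helix leucine zipper protein that pairs with MAX and drives genes of ribosome production and growth. AP-1 is a dimer of leucine zipper proteins, made by JUN, JUNB or JUND with each other or with FOS, FOSL1 or FOSL2. Growth factors and stress switch on FOS, JUN, EGR1, MYC, CCN1 and CCN2 within minutes to hours through kinases that act on promoter-bound factors such as SRF, without new protein synthesis, and the mRNAs decay quickly. Several of the proteins are short-lived because cullin ligases, which need NEDD8 for full activity, mark them for the proteasome: FBXW7, in a ligase built on CUL1, recognises MYC and JUN, and COP1 with DET1, in a ligase built on CUL4, recognises JUN. An array reads the mRNA and not the protein, so these routes are background to the values.

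The promoters of 5 members are printed because they set the best measured genes of the group, JUN, JUND and JUNB, beside FOS and EGR1, the classical immediate-early genes, which stayed at background level on these arrays. Each is the 250 bases before the gene start from RefSeq (GRCh38.p14), 5′ to 3′ on the gene's strand: JUN at chr1:58784048-58784297, minus strand, JUND at chr19:18281623-18281872, minus strand, JUNB at chr19:12791236-12791485, plus strand, FOS at chr14:75278578-75278827, plus strand and EGR1 at chr5:138465229-138465478, plus strand. Capitals mark TGACG, the core of the cAMP response element (on either strand, so also as CGTCA), its full palindrome TGACGTCA in JUND, the TGACATCA variant that JUN dimers bind in JUN, the CArG box bound by SRF in EGR1, and TATAAA in JUNB and FOS.
JUN: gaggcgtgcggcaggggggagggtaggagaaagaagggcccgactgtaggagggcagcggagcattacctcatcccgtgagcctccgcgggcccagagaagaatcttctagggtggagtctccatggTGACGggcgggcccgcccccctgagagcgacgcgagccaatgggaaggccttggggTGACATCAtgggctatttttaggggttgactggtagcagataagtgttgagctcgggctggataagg
JUND: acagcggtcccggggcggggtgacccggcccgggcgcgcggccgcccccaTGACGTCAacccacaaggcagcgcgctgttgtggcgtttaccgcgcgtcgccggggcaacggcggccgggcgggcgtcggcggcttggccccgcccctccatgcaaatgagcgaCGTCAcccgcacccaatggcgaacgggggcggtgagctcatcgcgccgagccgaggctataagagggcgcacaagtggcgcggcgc
JUNB: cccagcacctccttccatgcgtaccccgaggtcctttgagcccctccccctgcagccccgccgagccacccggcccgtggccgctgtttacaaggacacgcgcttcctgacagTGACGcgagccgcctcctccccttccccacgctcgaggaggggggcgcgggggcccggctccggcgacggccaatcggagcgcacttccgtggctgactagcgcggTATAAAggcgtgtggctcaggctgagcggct
FOS: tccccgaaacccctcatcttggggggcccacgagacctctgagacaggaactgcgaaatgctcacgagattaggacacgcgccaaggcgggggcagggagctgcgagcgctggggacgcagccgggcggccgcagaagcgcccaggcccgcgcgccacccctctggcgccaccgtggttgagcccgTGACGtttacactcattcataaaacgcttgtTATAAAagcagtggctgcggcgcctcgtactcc
EGR1: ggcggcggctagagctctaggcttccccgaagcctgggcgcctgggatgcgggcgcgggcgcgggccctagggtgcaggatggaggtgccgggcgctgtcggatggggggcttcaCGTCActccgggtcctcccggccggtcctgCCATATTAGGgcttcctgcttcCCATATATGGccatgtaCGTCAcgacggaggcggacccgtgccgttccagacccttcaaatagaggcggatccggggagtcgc

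TGACG on either strand was found in 6 of the 7 members with a promoter in the table (JUN, JUNB, JUND, FOS, FOSL2 and EGR1, but not CCN2), against 21.2% of all 35116 promoters of the same length. The complete palindrome TGACGTCA, which contains it on both strands, occurred in JUND alone among them, 200 bases before the start, and in 1.65% of all promoters. TGACATCA occurred 67 bases before the JUN start and in 2.37% of all promoters. The CArG box was found at 105 and 83 bases before the EGR1 start, and 1.16% of all promoters hold at least 1. TATAAA lay 31 bases before the JUNB start and 33 before the FOS start, and CCN2 also held it, against 10.7% of all promoters. The E-box CACGTG, the site of MYC and MAX, was in 0 of the 7 and in 6.34% of all promoters, and the AP-1 site TGANTCA in 0 of the 7 and in 6.57%. These matches describe the letters of the windows only.

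Of the arrays as a whole, shDCUN1D1 replicate 1 stood apart: 2690 probe sets exceeded their next highest array by over 1 log2, as did 151 in shDCUN1D1 replicate 2 and 27 and 365 in shGFP replicates 1 and 2. Background was judged from a nonspecific control probe set on each array, meant to match no transcript, with 20 G or C bases, which read 2.48 and 2.51 in shDCUN1D1 replicates 1 and 2 and 2.97 and 3.30 in the shGFP arrays, and of the 23 nonspecific controls 20 were lower in both shDCUN1D1 arrays than in both shGFP arrays. The share of probe sets above that control was 18.7% and 14.5% in the shDCUN1D1 arrays and 8.97% and 6.07% in the shGFP arrays. Detection depended on that choice. The control with 17 G or C bases read lower, at 1.802 and 1.917 in the shDCUN1D1 arrays and 2.186 and 2.345 in the shGFP arrays. Where no other is named, the nonspecific control is the one with 20 G or C bases. The brightest DCUN1D1 probe set read 1.60 and 1.45 in shDCUN1D1 cells and 2.55 and 1.99 in shGFP cells, a difference of −0.75 (standard error 0.26, adjusted p = 0.625 from limma). Of the other 5 DCUN1D1 probe sets 3 differed by −0.47 to −0.11 and 2 by 0.07 and 0.12, none of the 6 was past the fold bound, and none exceeded the nonspecific control in any array. Of the 8 epithelial markers 6 were above the nonspecific control in no array, EPCAM and CDH1 among them. KRT8 was above it in all 4 arrays, on a probe set whose probes can also bind other transcripts. KRT18, on a probe set of the same kind, was above it in shDCUN1D1 replicate 1 only (7.62, against 1.69 in shDCUN1D1 replicate 2 and 1.68 and 1.63 in shGFP). The label thus rests on few of its markers here. Of the 4 measured luminal prostate markers 2 were above the nonspecific control in no array and 0 in all 4. All 6 measured leukocyte markers, PTPRC among them, stayed under the nonspecific control in every array, as did 5 of the 6 endothelial markers, CDH5 and PECAM1 among them. The remaining one, CLDN5, read 2.77 and 1.96 in shDCUN1D1 and 3.66 and 5.27 in shGFP. Of the 8 fibroblast markers 6 were above the nonspecific control in no array. Only COL1A1 was above it in all 4, on a probe set whose probes can also bind other transcripts. The summed linear signal was 23.2 and 19.8 in shDCUN1D1 and 30.6 and 56.8 in shGFP over the 6 endothelial markers, and 37.4 and 53.7 in shDCUN1D1 and 43.7 and 52.5 in shGFP over the 8 fibroblast markers. Over the 6 leukocyte markers it lay between 19.6 and 20.1 in every array. PDGFRB of the fibroblast list read 2.67 and 2.24 in shDCUN1D1 and 3.46 and 3.47 in shGFP. The part of other cells in the results was not tested.

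The first question was which of the 10 genes the arrays detected in either group. JUN and JUND were the bright members, JUNB was intermediate, and MYC, FOS, FOSL1, FOSL2, EGR1, CCN1 and CCN2 lay mostly at the level of the nonspecific controls. Of the 22 probe sets, 3 were above the 20-base nonspecific control in all 4 arrays, 2 of JUN and 1 of JUND, and 13 were above it in none, against 4.39% and 76.1% of all probe sets. The means over 4 arrays of each gene's brightest probe set ran in the order JUN (6.63), JUND (6.08), JUNB (3.23), CCN1 (2.42), MYC (2.36), FOSL2 (2.31), EGR1 (2.07), FOSL1 (1.99), FOS (1.76) and CCN2 (1.14). Different probe sets bind with different strength, so this order is one of signal and not of transcript number, and neighbours from CCN1 to FOSL1 overlapped in their 4 array values. Where a member lay under the nonspecific control, a difference between the groups could not be told apart from a difference of background.

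**Figure D1:**
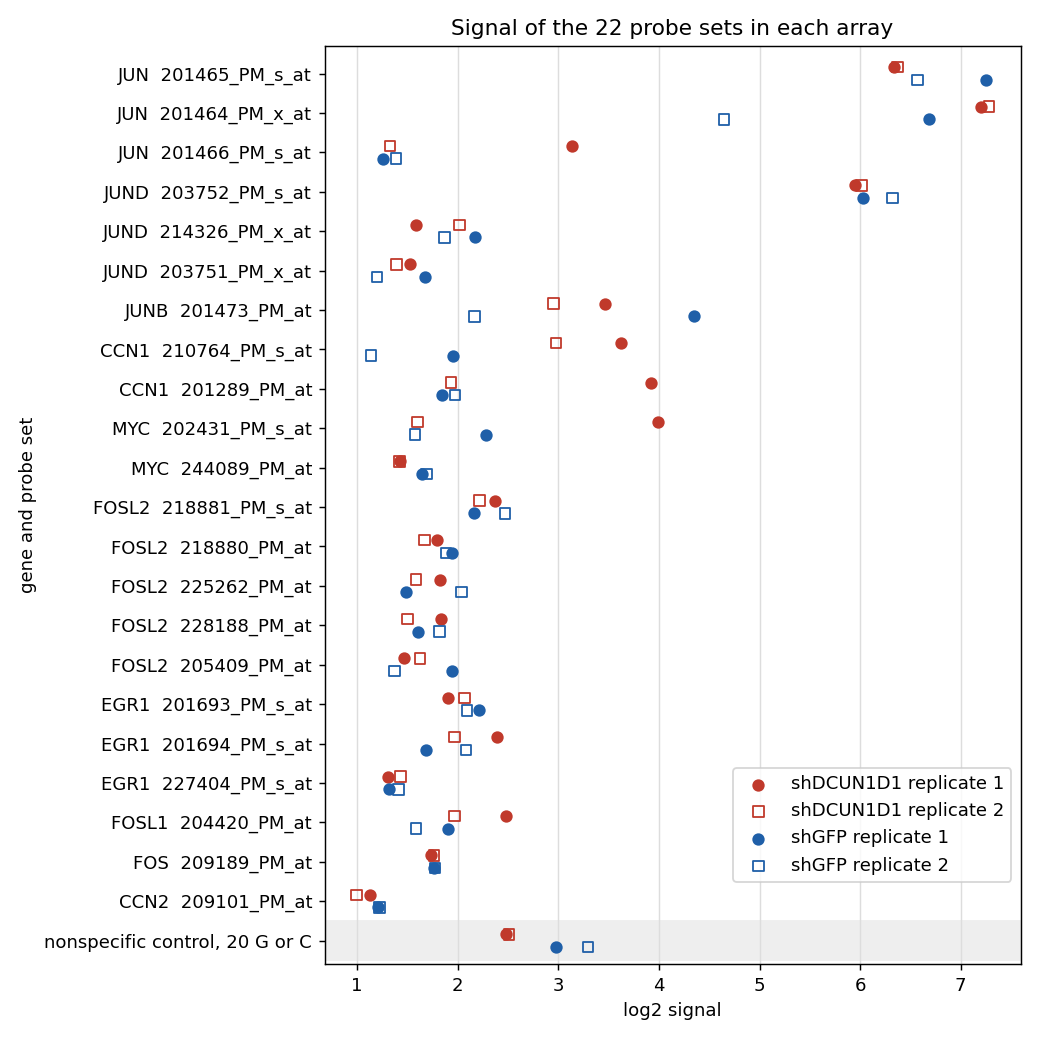
Log2 signal (horizontal axis) of each of the 22 probe sets (rows, by gene) in the 4 arrays, shDCUN1D1 in red above shGFP in blue, filled circles standing for replicate 1, open squares for replicate 2, and the bottom row for the nonspecific control. Only JUN and JUND have probe sets near 6 or above, and the filled red circles of MYC 202431_PM_s_at, CCN1 201289_PM_at and JUN 201466_PM_s_at (3.99, 3.92 and 3.14) lie far from the other arrays.

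Differences were tested with limma over all 40914 probe sets, with Benjamini–Hochberg adjustment, and a probe set counted as higher or lower past a fold bound if the 90% interval of its fold change, built on limma's standard error, began above 1.2. Of the 22 probe sets, 1 was higher past the bound (CCN1 210764_PM_s_at) and 0 lower, against 1.18% and 2.38% of all probe sets, or 3.56% in both directions. In limma 0 of all probe sets (0.0%) had an adjusted p under 0.05, the smallest being 0.625, and the methods' t-test with the same adjustment called 1. At an unadjusted p under 0.05 limma gave 3085 probe sets, 7.54% of all, of which 1 was a member, again that of CCN1. The median log2 fold change of the 22 was −0.04, against −0.01 over all probe sets, and 14 of the 22 differed by less than 0.25. Both shDCUN1D1 arrays lay above both shGFP arrays for 3 of the 22 (17.9% of all probe sets), and below both for 7 (25.0% of all), while 12 overlapped. The mean was lower in shDCUN1D1 for 13 of the 22, and for 21153 of all 40914 probe sets. Of the 13, 12 became higher once each array was centred on its nonspecific controls, all but JUN 201465_PM_s_at. That centring adds the same amount to the difference of every probe set, and it moved the median over all of them to 0.28. The 22 probe sets are no independent replicates, as up to 5 of them read 1 gene. An exact two-sided permutation test of a single probe set can reach no less than p = 0.333 with these 4 arrays.

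CCN1, which encodes a secreted matricellular protein that binds integrins and is a target of SRF and of YAP with TEAD, had the only member probe set past the fold bound. Its probe set 210764_PM_s_at read 3.62 and 2.98 in shDCUN1D1 replicates 1 and 2 and 1.95 and 1.14 in shGFP replicates 1 and 2. Both shDCUN1D1 values lay above the nonspecific control of their array and both shGFP values below theirs, so the fold is taken against background. The means were 3.30 ± 0.46 in shDCUN1D1 and 1.55 ± 0.58 in shGFP (SD, n = 2 each), which differed by 1.75 (standard error 0.41, 90% interval 0.92 to 2.59), or 3.37-fold, and limma gave an adjusted p of 0.625. The difference was 1.43 without shDCUN1D1 replicate 1 and remained past the bound, and 1.35 without shGFP replicate 2, where the lower bound of 1.09-fold fell short of it. The second CCN1 probe set, 201289_PM_at, did not repeat the pattern: it read 3.92 and 1.93 in shDCUN1D1 and 1.84 and 1.97 in shGFP. Its difference of 1.02 (standard error 0.68, 90% interval −0.34 to 2.37) came from shDCUN1D1 replicate 1 and was 0.02 without it. The mean of both CCN1 probe sets differed by 1.39 and was past the bound, at a lower bound of 1.33-fold.

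CCN2, the sister matricellular gene with the same upstream factors, gave the dimmest signal of the members, under the nonspecific control in every array. Its probe set 209101_PM_at read 1.13 and 0.99 in shDCUN1D1 and 1.21 and 1.22 in shGFP. The groups did not overlap, and the difference of −0.15 (standard error 0.09, 90% interval −0.33 to 0.02, adjusted p = 0.625 from limma) was smaller than that of the nonspecific controls between the same arrays, whose median was −0.29.

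JUN, the transactivating partner of AP-1, was bright on 2 probe sets that moved in opposite directions. The probe set 201465_PM_s_at read 6.33 and 6.37 in shDCUN1D1 and 7.25 and 6.57 in shGFP, and 201464_PM_x_at read 7.20 and 7.28 in shDCUN1D1 and 6.68 and 4.65 in shGFP. In each the shDCUN1D1 arrays stood within 0.08 of each other and outside the shGFP pair, below it in the first and above it in the second. The differences were −0.56 (standard error 0.59, 90% interval −1.75 to 0.63, adjusted p = 0.733 from limma) and 1.57 (standard error 0.85, 90% interval −0.14 to 3.29, adjusted p = 0.625 from limma), neither past the fold bound. The suffix x marks a probe set with probes that can also bind other transcripts, and s one whose probes fit several transcripts, usually of 1 gene. Much of the second difference rested on shGFP replicate 2: without it the value was 0.56, and without shGFP replicate 1 it was 2.59 and past the bound. Among the 202 genes with several probe sets above the nonspecific control in all 4 arrays, 35.6% had probe sets of opposite sign, and the gap of 2.13 between those of JUN was reached or exceeded by 3.47%, JUN included. The third probe set, 201466_PM_s_at, was dim in 3 arrays: it read 3.14 and 1.33 in shDCUN1D1 and 1.26 and 1.39 in shGFP, a difference of 0.91 that was 0.01 without shDCUN1D1 replicate 1. The mean over the 3 JUN probe sets differed by 0.64 (standard error 0.57), so neither a direction nor a size of a change of JUN could be given.

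JUND, the JUN protein of resting cells, had 1 bright probe set, whose difference was small as deposited and depended on the scaling. JUND 203752_PM_s_at read 5.95 and 6.01 in shDCUN1D1 and 6.02 and 6.32 in shGFP, with the shDCUN1D1 arrays just below the shGFP arrays. Its difference of −0.19 had a 90% interval from −1.38 to 0.99 (standard error 0.59, adjusted p = 0.922 from limma). Quantile normalization gave −1.09 and centring on the nonspecific controls 0.10, neither past the fold bound. The 90% interval of the deposited values holds changes of either sign, so no direction of a change of JUND could be given. The other JUND probe sets, 214326_PM_x_at and 203751_PM_x_at, lay at or below 2.17 in every array, with overlapping groups and differences of −0.22 and 0.02.

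JUNB, a weaker activator that can oppose JUN, varied more within the shGFP group than between the groups. Its single probe set, 201473_PM_at, read 3.46 and 2.95 in shDCUN1D1 and 4.35 and 2.17 in shGFP, so that both shDCUN1D1 values fell inside the shGFP range. It exceeded the nonspecific control in all arrays but shGFP replicate 2. The means were 3.21 ± 0.36 in shDCUN1D1 and 3.26 ± 1.54 in shGFP (SD, n = 2 each), and the difference was −0.05 (standard error 0.80, 90% interval −1.65 to 1.55, adjusted p = 0.988 from limma). Its sign and size followed the control array chosen, at 1.04 without shGFP replicate 1 and −1.14 without shGFP replicate 2.

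The FOS family genes, whose proteins bind DNA as partners of JUN proteins, showed little signal. FOS 209189_PM_at read 1.73 and 1.76 in shDCUN1D1 and 1.77 and 1.78 in shGFP, all under the nonspecific control and all within 0.05 of each other. FOSL1, known in carcinoma cells for its part in migration, read 2.48 and 1.97 in shDCUN1D1 and 1.91 and 1.58 in shGFP on 204420_PM_at, with both shDCUN1D1 values higher. Its difference was 0.48 (standard error 0.27, 90% interval −0.07 to 1.03, adjusted p = 0.625 from limma), short of the fold bound, and only shDCUN1D1 replicate 1 was above its nonspecific control, by less than 0.01. FOSL2 had 5 probe sets, with differences from −0.18 to −0.02 that all became positive after centring on the nonspecific controls, none past the bound and none above the 20-base control in any array. The brightest of them, 218881_PM_s_at, read 2.37 and 2.22 in shDCUN1D1 and 2.16 and 2.47 in shGFP.

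EGR1, the zinc finger factor that serum induces through the CArG boxes printed above, was under the nonspecific control on all 3 probe sets and in all 4 arrays. The brightest, 201693_PM_s_at, read 1.90 and 2.06 in shDCUN1D1 and 2.22 and 2.09 in shGFP, a difference of −0.17 (standard error 0.22, 90% interval −0.61 to 0.26, adjusted p = 0.775 from limma). The probe set 201694_PM_s_at read 2.39 and 1.97 in shDCUN1D1 and 1.69 and 2.08 in shGFP, with overlapping groups and a difference of 0.29. The third, 227404_PM_s_at, differed by 0.00.

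MYC was above the 20-base nonspecific control in a single array. MYC 202431_PM_s_at read 3.99 in shDCUN1D1 replicate 1 and 1.60 in shDCUN1D1 replicate 2, against 2.28 and 1.58 in the shGFP arrays, and only the first of these exceeded its 20-base control. Against the 17-base control, which read 2.186 in shGFP replicate 1, the 2.28 of that array was above as well. The groups overlapped, and the difference of 0.86 (standard error 0.82, 90% interval −0.79 to 2.51, adjusted p = 0.705 from limma) was −0.33 without shDCUN1D1 replicate 1 and 2.06, past the bound, without shDCUN1D1 replicate 2. The other MYC probe set, 244089_PM_at, read 1.43 and 1.42 in shDCUN1D1 and 1.64 and 1.69 in shGFP. Its replicates agreed closely and its groups did not overlap, but all 4 values were under the nonspecific control, and the difference of −0.24 (standard error 0.14, adjusted p = 0.625 from limma) was again no larger than that of the nonspecific controls. The 2 probe sets thus gave opposite signs, though both were positive (1.16 and 0.05) after centring on the nonspecific controls.

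**Figure D2:**
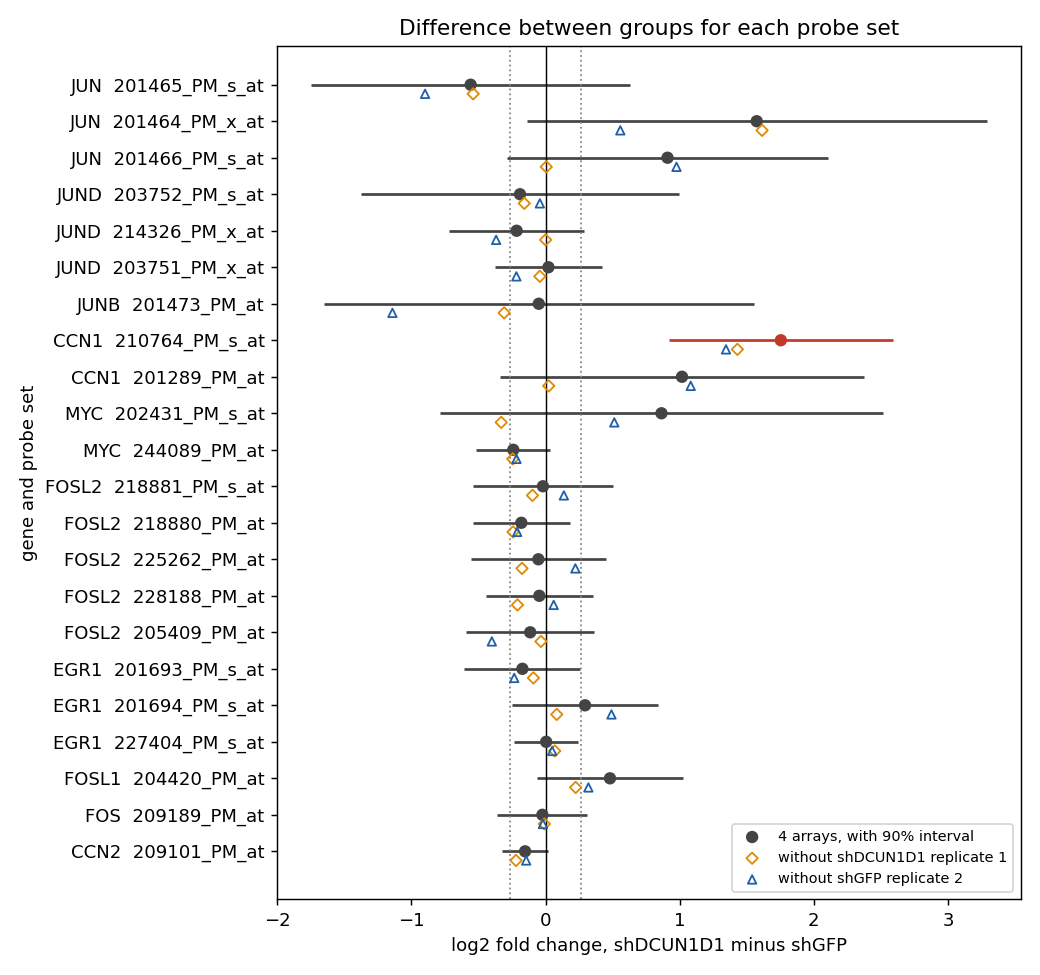
Log2 fold change (horizontal axis, shDCUN1D1 minus shGFP) of each of the 22 probe sets (rows), with dots for the fit on 4 arrays and bars for its 90% interval, orange diamonds for the value without shDCUN1D1 replicate 1, blue triangles for that without shGFP replicate 2, and dotted lines at a fold of 1.2 in each direction. The red bar of CCN1 210764_PM_s_at, 0.92 to 2.59, is the only one wholly past a dotted line, and the diamond of MYC 202431_PM_s_at falls to −0.33.

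A single array set several of these values. In shDCUN1D1 replicate 1, 3 of the 22 probe sets (MYC 202431_PM_s_at, CCN1 201289_PM_at and JUN 201466_PM_s_at) exceeded the next highest array by over 1 log2, which held for 6.57% of all probe sets. Among the other 19 the gap between the shDCUN1D1 replicates was at most 0.65, whereas the shGFP replicates differed by 2.18 for JUNB and 2.04 for JUN 201464_PM_x_at. By Euclidean distance over the 4 log2 values, the genes most like MYC on their brightest probe sets were CNIH4 (0.378) and RRS1 (0.439), which read 3.85 and 3.83 in shDCUN1D1 replicate 1 and 1.55 to 2.04 elsewhere. Those most like JUN were ETFA (0.347) and SELENOT (0.497), with values of 6.53 to 7.09. Those most like EGR1 were CHROMR (0.0442) and DNAAF8 (0.0622), also at background level.

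The genes that surround the members were then counted on the brightest probe set of each gene, in a limma fit of 19774 genes of which 1.57% passed the fold bound upwards and 3.64% downwards. Of 25 target genes of MYC, 2 were higher and 1 lower, and the median log2 fold change was 1.23, against −0.01 over all genes. The mean was higher in shDCUN1D1 for 21 of the 25, against 48.5% of all genes. On their brightest probe sets, 1 of the 25 was above the nonspecific control in no array. The share over all probe sets was 76.1%, but it also counts the dimmer probe sets of each gene, so the 2 are not alike. Over the probe sets above that control in both arrays of at least 1 group, the median log2 fold change was 0.19. More probe sets exceeded it in the shDCUN1D1 arrays (18.7% and 14.5%) than in the shGFP arrays (8.97% and 6.07%). The filter thus favours probe sets that are higher in shDCUN1D1, and its median is no neutral base for the list. C1QBP, a mitochondrial matrix protein, read 7.26 and 4.15 in shDCUN1D1 and 2.54 and 2.27 in shGFP, differing by 3.31 on the log2 scale (limma standard error 1.09, adjusted p = 0.59). Both shGFP values of C1QBP were under the nonspecific control. EIF4A1, an RNA helicase of translation initiation, read 9.71 and 6.86 in shDCUN1D1 and 5.94 and 4.78 in shGFP, and BOP1, a factor of ribosome assembly, 2.75 and 2.01 in shDCUN1D1 and 3.47 and 3.44 in shGFP. In shDCUN1D1 replicate 1, 14 of the 25 targets exceeded the next highest array by over 1 log2, against 8.17% of all genes, and the summed linear signal of the list was 4210 there and 996 in shDCUN1D1 replicate 2, against 897 and 731 in the shGFP arrays. Without shDCUN1D1 replicate 1 the counts were 2 higher and 1 lower at a median of 0.11, and without shDCUN1D1 replicate 2 they were 14 and 0 at a median of 2.20. Without shGFP replicate 1 they were 2 and 0, and without shGFP replicate 2 they were 0 and 0 at a median of 0.99. As means over each gene's probe sets they were 2 and 0, with BOP1 at −0.57. The part of that array in the shift beyond these values was not tested.

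Ligases and proteases that act on MYC, JUN and FOS proteins had 4 of 24 genes higher and 0 lower past the fold bound, and both shDCUN1D1 arrays above both shGFP arrays for 12 of 24 and below both for 6, against 18.4% and 26.3% of all genes. ITCH, a HECT ligase of JUN proteins, read 4.04 and 3.60 in shDCUN1D1 and 2.23 and 2.20 in shGFP, differing by 1.60 on the log2 scale (limma standard error 0.34, adjusted p = 0.59). HUWE1, a HECT ligase of MYC, read 5.16 and 5.75 in shDCUN1D1 and 4.42 and 1.94 in shGFP, with the shGFP arrays far apart. DDB1, the adaptor of CUL4 ligases, read 2.92 and 2.41 in shDCUN1D1 and 1.77 and 1.81 in shGFP, and FBXO28, an F-box protein that modifies MYC, 2.66 and 2.14 in shDCUN1D1 and 1.66 and 1.42 in shGFP. In both shGFP arrays ITCH, DDB1 and FBXO28 were under the nonspecific control, as was HUWE1 in shGFP replicate 2. DDB1 and FBXO28 were under it in shDCUN1D1 replicate 2 as well. As the mean over all of a gene's probe sets the log2 fold changes were 0.50 for ITCH, 0.67 for HUWE1 and 0.28 for FBXO28, and in that fit the count past the bound was 1 of 24. The median log2 fold change of the list was 0.469. With 1 array left out it ran from 0.189 (without shDCUN1D1 replicate 1) to 0.575 (without shGFP replicate 1), and the number past the bound changed too.

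Of 21 genes of the CCN family and of YAP with TEAD, 3 were higher and 1 lower past the bound. TEAD1, a DNA-binding partner of YAP, read 3.91 and 2.56 in shDCUN1D1 and 1.68 and 1.49 in shGFP, TEAD4 of the same family 4.27 and 2.46 in shDCUN1D1 and 1.93 and 1.60 in shGFP, and LATS2, a kinase that restrains YAP, 3.21 and 2.91 in shDCUN1D1 and 2.15 and 2.16 in shGFP. TEAD1, TEAD4 and LATS2 were under the nonspecific control in both shGFP arrays, and TEAD4 also in shDCUN1D1 replicate 2. TEAD2 went the other way, with 4.06 and 3.03 in shDCUN1D1 and 5.14 and 5.52 in shGFP, differing by −1.78 on the log2 scale (limma standard error 0.57, adjusted p = 0.59), and by −0.42 as the mean over its 5 probe sets. Over all of their probe sets TEAD1 differed by 0.57, TEAD4 by 1.13 and LATS2 by 0.33, and in that fit 0 genes of the list were past the bound. In shDCUN1D1 replicate 1, 7 of the 21 exceeded the next highest array by over 1 log2, against 8.17% of all genes. Without that array the differences on the brightest probe sets were 0.98 for TEAD1, 0.70 for TEAD4, 0.76 for LATS2 and −2.29 for TEAD2. The median log2 fold change of the list was 0.276. With 1 array left out it ran from 0.195 (without shDCUN1D1 replicate 1) to 0.302 (without shGFP replicate 2), and the genes past the bound changed too. Of 21 kinases and factors upstream of immediate-early genes 1 was higher: MRTFA, a coactivator of SRF, read 3.05 and 3.31 in shDCUN1D1 and 2.25 and 2.03 in shGFP, both shGFP values under the nonspecific control. MRTFA differed by 1.04 on the log2 scale (limma standard error 0.29, adjusted p = 0.59), or 0.28 over its 5 probe sets. The median of this list was 0.202. With 1 array left out it ran from 0.0178 (without shGFP replicate 2) to 0.387 (without shGFP replicate 1), and the number past the bound changed too.

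In the remaining lists no gene passed the bound in either direction. These were 15 bZIP partners of AP-1 such as ATF3 and FOSB, 29 other immediate-early genes such as DUSP1 and NR4A1, 18 genes of the MAX and MXD network, and 15 target genes of AP-1, with median log2 fold changes of 0.02, 0.10, 0.09 and 0.12. For the other immediate-early genes, 9 of 29 exceeded the next highest array by over 1 log2 in shDCUN1D1 replicate 1, against 8.17% of all genes. The median of the 29 was −0.17 without that array.

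**Figure D3:**
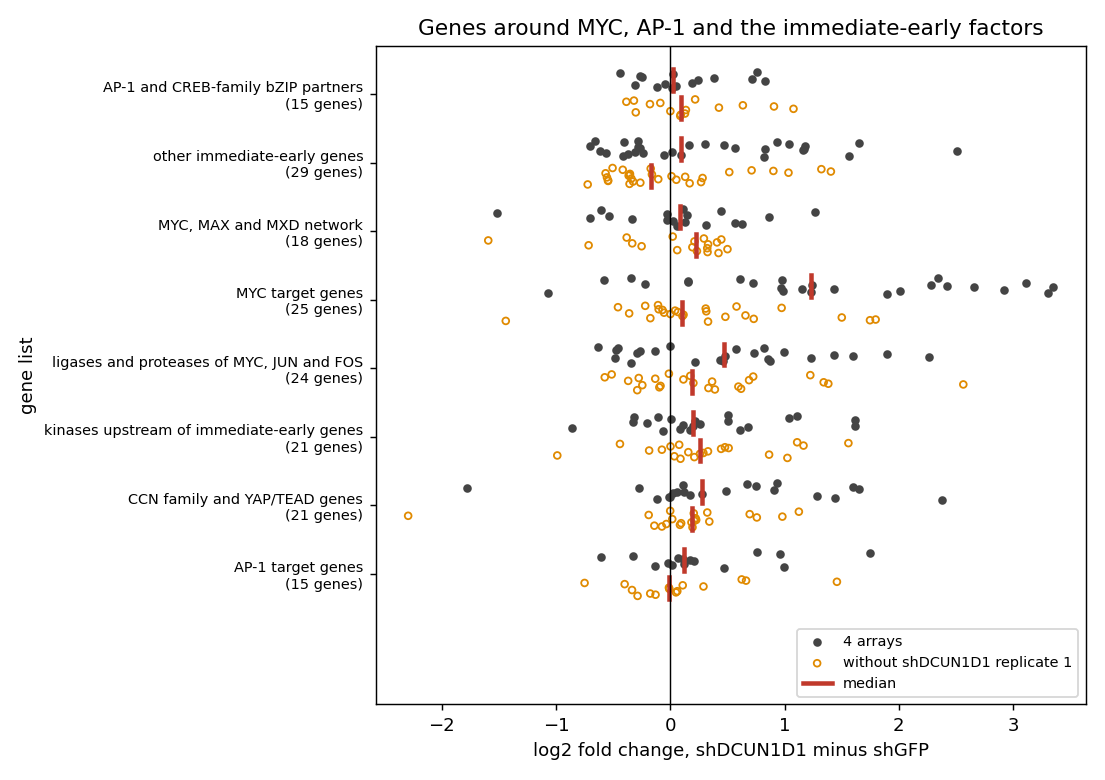
Log2 fold change (horizontal axis, shDCUN1D1 minus shGFP) of each gene of 8 lists (rows) on its brightest probe set, as grey dots from all 4 arrays and as open orange circles without shDCUN1D1 replicate 1, with red bars for the medians. The MYC target genes have a median of 1.23 with all arrays and 0.11 without that replicate.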

How the data were processed

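RNA of DU145 cells was measured on 4 one-colour Affymetrix arrays, 2 shDCUN1D1 and 2 shGFP, from 1 µg of total RNA each. The values that the authors deposited are log2 signals of probe sets. Affymetrix Expression Console is the tool in the submitters' processing notes, whereas the study's methods name dChip with a smoothing spline. Which algorithm made them is not given in the sources. No further scaling was applied. Of 54715 probe sets, the platform annotation names 1 gene for 40914, several for 864 and none for 12835, and 102 are controls. Of the 40914, 40858 matched RefSeq (GRCh38.p14) by gene ID. All were fitted, letting the variance follow the mean signal, with limma 3.58.1 (R 4.3.3), and the lists in a fit of the brightest probe set per gene (highest mean over 4 arrays). The fold bound is modelled on the lower confidence bound in the methods, but uses limma's standard error and the lower end of a two-sided 90% interval, which is stricter than a one-sided 90% bound. The fit was checked on simulated arrays.

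The members and the gene lists were chosen with earlier results of these data known. Named were all 10 members, DCUN1D1, up to 4 genes per list with the largest change past the bound whose groups did not overlap, and the 2 genes nearest to MYC, JUN and EGR1. KRT8, KRT18, EPCAM, CDH1, PTPRC, CDH5, PECAM1 and COL1A1 were named as defining markers, and ATF3, FOSB, DUSP1 and NR4A1 only as examples of their lists. The records call the arrays biological duplicates without naming separate cultures, so p-values measure the spread between these arrays. Alternatives were other scalings, filters, features, variance models, call rules, a replicate block and leaving out each array. RefSeq promoters were matched by symbol for 7 members.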

Additional observations from a re-analysis of the deposited data

How the results depend on the processing

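The call of CCN1 210764_PM_s_at as the 1 member higher past the fold bound held under quantile normalization, median centring and centring on the nonspecific controls. It also held with the filter on mean signal, the mean per gene, the other variance models and an unadjusted p from limma. With the filter on the nonspecific control it held too, but CCN1 passed that filter only through the shDCUN1D1 arrays, where it is high. The brightest probe set per gene is this same probe set, with the same difference of 1.75, so that setting adds no separate check. The call was lost with an unmoderated standard error (0 members, lower bound 1.17-fold) and by the methods' t-test at an unadjusted p under 0.05 (0 higher and 1 lower, MYC 244089_PM_at at −0.24), and the cause was not tested. A one-sided 90% bound, added after the data were seen, gave 2 higher, with JUN 201464_PM_x_at. Quantile normalization moved JUN 201465_PM_s_at to −1.39 and JUN 201464_PM_x_at to 0.88, with opposite signs as before, and JUND 203752_PM_s_at to −1.09, none of them past the bound. Leaving out 1 array gave 0 to 4 higher probe sets and 0 to 2 genes on their brightest probe set.

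Over all probe sets, 481 were higher and 974 lower. Leaving out 1 array gave 47 to 4008 higher and 503 to 1374 lower. Centring on the nonspecific controls gave 2590 and 322, so that 88.9% of calls were higher, against 33.1%, and moved the median of all probe sets to 0.28. That centring adds the same amount to each member's difference, and 12 of the 13 members with a lower mean became higher, among them CCN2 (0.14), FOS (0.27), JUNB (0.24) and MYC 244089_PM_at (0.05). The brightest probe set per gene gave 311 higher, the mean per gene 172 and 412, the unmoderated error 297 higher, probe sets above the nonspecific control 452 lower, an unadjusted p from limma 939 and 2146, the t-test 794 and 2134, and the one-sided bound 1529 and 1735. After Benjamini–Hochberg adjustment the t-test called 1 probe set. With each array left out in turn, the 8 lists had 1 to 50 genes higher and 0 to 2 lower, and as means per gene 4 and 1.

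No pairing by replicate number was seen in the values (correlation of deviations over all probe sets −0.04). Such a correlation cannot tell whether same-numbered arrays shared a culture or batch. The replicate block gave 505 higher and 669 lower probe sets, against 481 and 974 without it, and 1 member higher either way. With 2 arrays per group and most members under the nonspecific controls, small changes of MYC, FOS, EGR1 and CCN2 were not detectable.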
